A study of Saccharomyces cerevisiae with 26 samples.

Results

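The moderately replicated chromosome arm zones of budding yeast (Saccharomyces cerevisiae) described here are stretches that took up an intermediate amount of BrdU in wild type (WT) cells early in S phase. They were selected on WT replicate 1, as 1 kb windows whose mean BrdU signal was at least 10 and under 40 in that library, lying more than 35 kb from every chromosome end and every centromere. Chromosomes III and VI were left out by the same rule. The rule selected 1044 of 12063 windows in the genome, or of 9523 windows in the arms concerned. Of the other arm windows, 8030 had a signal under 10 and 449 a signal of 40 or more. At the lower bound, the nearest windows outside had a WT replicate 1 signal of 9.991 and 9.998 and the nearest inside 10.01 and 10.03, and at the upper bound these were 39.9 and 39.9 inside and 40.1 and 40.2 outside. Because WT replicate 1 chose the windows, its values are a description, and each mutant was tested against WT replicate 2, which the rule did not use.

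The study labelled new DNA in 5 strains, WT, fkh1Δ, fkh2Δ, fkh1Δfkh2Δ and fkh1Δfkh2Δ2C, with 2 BrdU immunoprecipitation sequencing libraries each. FKH1 and FKH2 encode Forkhead transcription factors, the Δ marks a deletion, and the meaning of 2C was not given in the sources used here. All 5 strains were grown in YEPD, a rich medium, at room temperature with the mating pheromone α-factor for 4 hours, which holds a-type cells in G1, and then with hydroxyurea and BrdU for 1 hour. Sequencing of stranded RNA and of DNA bound to Rpb3, a subunit of RNA polymerase II, was done in WT and fkh1Δfkh2Δ2C only, in asynchronous cells and in cells held in G1, again with 2 libraries per group. No label stated that the libraries of a group came from separate cultures, so p-values measure the spread between these libraries, which may be technical.

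Replication of a yeast chromosome starts at many origins, each licensed in G1 by loading of the MCM helicase and fired at a characteristic time in S phase. Hydroxyurea depletes nucleotides and activates the replication checkpoint, so forks from early origins stall near their start and late origins are held back. BrdU, a thymidine analogue, therefore marks the surroundings of origins that fired early. In budding yeast, Fkh1 and Fkh2 are known both as regulators of cell cycle genes and as factors that set which origins fire early.

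The libraries were checked before the comparisons. FKH1 itself lies in 3 of the chosen windows, on chromosome IX, and its BrdU signal was 65.4% and 68.7% of that of its flanks in fkh1Δ replicates 1 and 2, against 88.1% and 89.8% in WT. It was 79.9% and 83.9% in fkh1Δfkh2Δ and 73.1% and 74.3% in fkh1Δfkh2Δ2C. The flanks had only 3.12 to 3.85 in these 4 libraries, so the ratio is a weak check there. Rpb3 was not measured in fkh1Δfkh2Δ. At FKH2, the signal was 42.8% and 40.2% of the flanks in fkh2Δ and 102% and 102% in WT. In fkh1Δfkh2Δ it was 67.8% in replicate 1 and 39.2% in replicate 2, and in fkh1Δfkh2Δ2C it was 96.3% and 61.2%, so that FKH2 was not reduced in fkh1Δfkh2Δ2C replicate 1 as it was in fkh2Δ. Rpb3 over FKH1 was 1.32 to 7.26 in the 4 fkh1Δfkh2Δ2C libraries and 27.7 to 40.96 in the 4 WT libraries, and over FKH2 it was 37.8 to 46.4 and 27.1 to 38.4. The library labelled fkh1Δfkh2Δ replicate 1 matched a sum of 0.512 times fkh1Δfkh2Δ replicate 2 and 0.494 times fkh1Δfkh2Δ2C replicate 1, with a residual of 1.61% of its root-sum-square signal, whereas the best pair of libraries left 4.87% to 25.4% for the 9 others. It kept more FKH2 signal than its partner, against its label, so fkh1Δfkh2Δ below is the name on the label, and the counts and medians of that strain are given with and without this library. The second fkh2Δ library carries fkh1Δ in its strain tag and was placed by its title. Its signal over the gene BAR1, 2.56, stood apart from 0.0546 or less in the 9 others. This was 129% of the flanks of BAR1, against 1.99% to 7.86% in the others. The 2 fkh2Δ libraries were thus unlike at this gene, and no label gives a reason.

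Adjacent windows joined into 270 zones, of which 17 were single windows, the median was 3 windows and the longest 12. From WT replicate 1 alone, a zone was called a shoulder where 1 side touched a run of windows of 40 or more, a bridge where both sides did, and isolated where neither did. This gave 171 shoulders with 587 windows, 96 isolated zones with 438 windows and 3 bridges with 19 windows. A shoulder is thus the flank of a strongly labelled place, and an isolated zone is a smaller peak of its own.

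Mean signal over the 1044 windows lay between 16.1 and 21.5 in every library, while its distribution differed between strains. The mean was 20.2 and 20.7 in WT replicates 1 and 2, 17.3 and 17.2 in fkh1Δ, 21.5 and 21.1 in fkh2Δ, 16.2 and 16.1 in fkh1Δfkh2Δ, and 16.2 and 17.3 in fkh1Δfkh2Δ2C. The windows held 24.9% to 27.0% of all arm signal in every library. Of the 1044 windows, 61 were under 10 in WT replicate 2, against 280 and 287 in fkh1Δ, 89 and 91 in fkh2Δ, 521 and 544 in fkh1Δfkh2Δ, and 491 and 480 in fkh1Δfkh2Δ2C. Windows of 40 or more numbered 38 in WT replicate 2, 42 and 42 in fkh1Δ, 52 and 50 in fkh2Δ, 101 and 103 in fkh1Δfkh2Δ, and 91 and 99 in fkh1Δfkh2Δ2C. The strains labelled with both deletions therefore had more windows at both extremes than WT replicate 2 and the single mutants. Relative to the arm windows of 40 or more, whose own mean was 79.2 in WT replicate 2 and 33.5 and 28.7 in fkh1Δfkh2Δ, the chosen windows had 26.1% of their signal in WT replicate 2, 27.5% and 28.2% in fkh1Δ, 26.6% and 26.3% in fkh2Δ, 48.3% and 56.2% in fkh1Δfkh2Δ, and 42.5% and 39.9% in fkh1Δfkh2Δ2C. The deposited values share nearly 1 distribution in every library, so they show where signal was gained or lost, and the total amount of BrdU cannot be compared between strains.

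**Figure D1:**
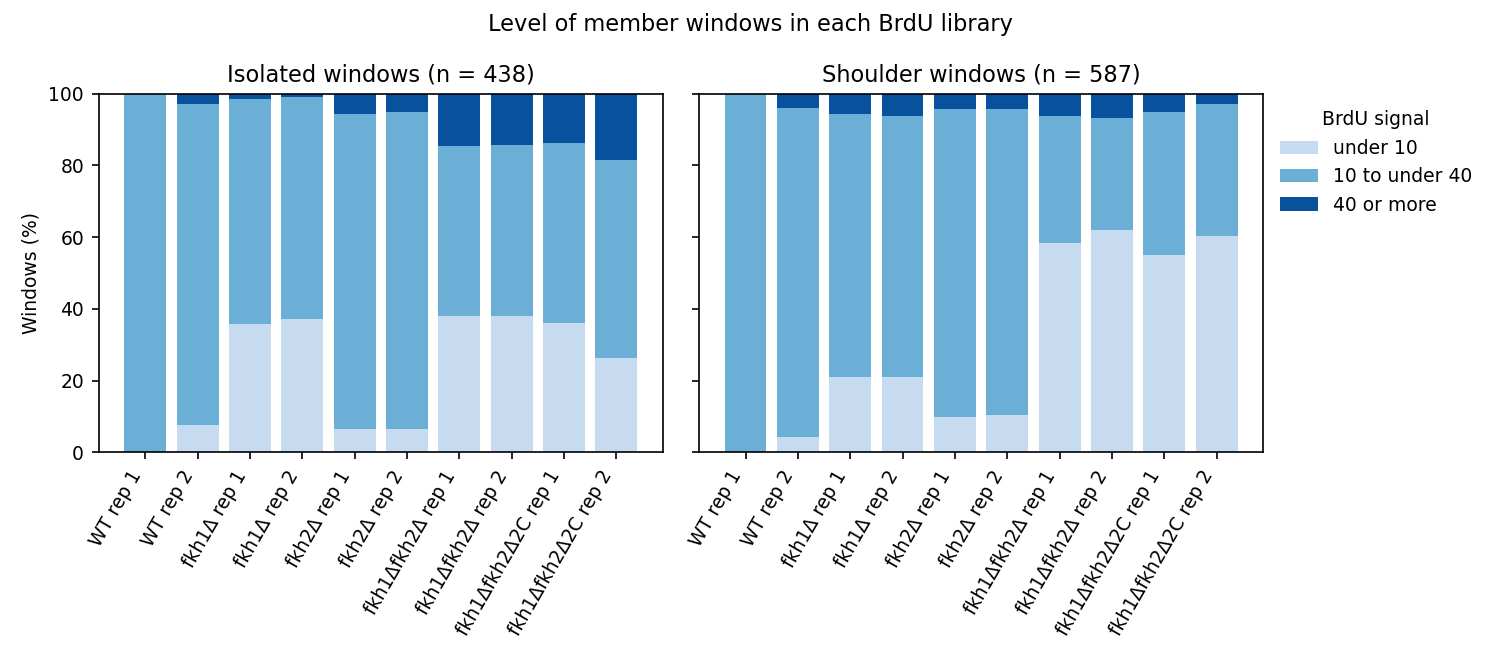
Share of the chosen windows (y axis, percent) with a BrdU signal under 10, from 10 to under 40, or of 40 or more in each library (x axis), for isolated zones (438 windows) and shoulders (587 windows). WT replicate 1 chose the windows and so has all of them in the middle class; of the shoulder windows, 58.3% and 62.0% were under 10 in fkh1Δfkh2Δ and 4.26% in WT replicate 2.

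Isolated zones and shoulders stood in a different order in the strains labelled with both deletions. The mean of isolated windows was 78.3% and 82.1% of that of shoulder windows in WT, 72.8% and 68.7% in fkh1Δ, and 97.6% and 95.1% in fkh2Δ. It was 151% and 154% in fkh1Δfkh2Δ and 147% and 214% in fkh1Δfkh2Δ2C, so these 4 libraries lay above the 5 others that the rule did not use. Without fkh1Δfkh2Δ replicate 1 the other 3 still lay above them. In those 4 libraries the isolated windows had a mean of 20.002 to 24.99, against 18.4 in WT replicate 2, and the shoulder windows 11.7 to 13.6, against 22.4. With 2 libraries per group the smallest p that a 2-sided exact permutation test can give is 0.333, so no test of this ratio was made.

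In the strain lacking FKH1 alone, lower windows outnumbered higher ones. In fkh1Δ, limma with Benjamini-Hochberg adjustment called 356 of 1044 windows lower and 46 higher than WT replicate 2 at an adjusted p under 0.05. Over all 10856 windows tested the same comparison called 11.9% lower and 10.9% higher, against 34.1% and 4.41% of the chosen windows. Arm windows of 40 or more were called lower as often, with 34.3% lower and 0% higher. Arm windows under 10 had 8.12% and 8.30%. The median log2 difference of the chosen windows was -0.31, with a median standard error of 0.19 for a single window, and over all windows it was 0.04. Isolated windows had a median of -0.48, with 165 lower and 17 higher, and shoulder windows one of -0.18, with 190 lower and 25 higher. By zones, counting a zone as changed where at least 50% of its windows passed in 1 direction, 92 were lower, 10 higher and 168 neither. The counts moved with single libraries. Without fkh1Δ replicate 1 or 2, 221 and 187 windows were lower and 17 and 8 higher. Without fkh2Δ replicate 1 or 2, 23 and 24 were higher. The genome shares of these refits are not given here, so the counts do not tell the chosen windows from the genome. Without fkh1Δfkh2Δ2C replicate 1 or 2, 133 and 133 were higher, where the genome had 16.97% and 16.96%.

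Of the 6 largest falls in fkh1Δ, 4 were shoulders of 2 strongly labelled runs. Inside TOR2, which encodes a kinase of the TOR growth pathway (chromosome XI, 59001 to 63000, coordinates 1-based as in the files, build not stated), WT had 24.3 and 24.005 and fkh1Δ 3.19 and 3.14. The mean log2 difference of its 4 windows was -2.52, with a median standard error of 0.16 and limma adjusted p-values of 1.59e-05 to 5.05e-05. On the other side of the same strongly labelled run, inside LOS1, whose product exports tRNA from the nucleus (chromosome XI, 49001 to 52000), 21.7 and 22.6 in WT compared with 3.48 and 3.78 in fkh1Δ. In the mutant both zones were near the median bin of the genome, which was 2.60 to 2.66 in all 10 libraries. The zone inside ATG1, which encodes a kinase that starts autophagy (chromosome VII, 159001 to 162000), had 22.6 and 28.5 in WT and 5.998 and 5.60 in fkh1Δ. Its partner across the run, inside TOS3, a gene of a kinase that acts on Snf1 (chromosome VII, 164001 to 169000), had 21.9 and 27.1 in WT and 6.46 and 5.57 in fkh1Δ. The other 2 of the 6 largest falls, inside TPS1 of trehalose synthesis (chromosome II) and AIM14 (chromosome VII), had log2 differences of -1.90 and -1.84 and were also shoulders.

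The rises in fkh1Δ were smaller, and 8 zones of 3 or more windows met the same condition upward, against 75 downward. The zone inside STU2, which encodes a microtubule-binding protein of the spindle (chromosome XII, 235001 to 239000), had 21.7 and 15.9 in WT and 35.4 and 39.5 in fkh1Δ, a log2 difference of 1.18. Between MIG3 and SMB1 (chromosome V, 210001 to 216000), a transcription regulator gene and a splicing factor gene, the isolated zone had 18.5 and 19.2 in WT and 39.8 and 37.4 in fkh1Δ. Its 6 windows passed, with limma adjusted p-values of 0.00301 to 0.00906 and a mean log2 difference of 0.98. The shoulder ending between GTB1 and YDR222W (chromosome IV, 906001 to 910000) had 22.3 and 23.3 in WT and 42.0 and 43.4 in fkh1Δ, and 3 of its 4 windows passed. Both fkh1Δ libraries were above WT replicate 2 at each of these places. RIC1 on chromosome XII, MRPS35 on chromosome VII, and the space between SCM3 and RGT2 on chromosome IV completed the 6 largest rises, with log2 differences of 0.78, 0.72 and 0.63. Of any length, the highest was a zone of 2 windows inside YNL115C (chromosome XIV, 411001 to 413000), named after its values were seen, with 11.4 and 13.3 in WT and 50.4 and 46.8 in fkh1Δ.

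FKH1's own zone fell as well. The shoulder holding FKH1 (chromosome IX, 100001 to 103000), with CSM2 and ASG1 beside it, had 20.7 and 23.1 in WT, 6.19 and 6.52 in fkh1Δ, 24.2 and 21.7 in fkh2Δ, 3.09 and 2.84 in fkh1Δfkh2Δ, and 3.25 and 3.08 in fkh1Δfkh2Δ2C. All 3 windows passed as lower in the 3 strains labelled with a deletion of FKH1. Within FKH1 itself the signal was 5.10 and 5.50 in fkh1Δ and 19.9 and 22.2 in WT. How much of the zone's fall the missing DNA of the gene accounts for was not tested. The flanks of the gene had 7.80 and 8.004 in fkh1Δ and 22.6 and 24.7 in WT.

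Deletion of FKH2 alone changed no chosen window past the threshold. The 2 fkh2Δ libraries, unlike at BAR1, were taken as replicates in this comparison. In fkh2Δ, limma called 0 windows higher and 0 lower than WT replicate 2, where the whole genome had 0% higher and 0.0276% lower, and at an unadjusted p under 0.05 there were 71 higher and 68 lower. These made up 13.3% of the chosen windows, against 18.8% of all windows, so such windows were fewer here than over the genome. The median log2 difference was 0.02 over all chosen windows, 0.18 over isolated windows and -0.09 over shoulder windows. At an unadjusted p under 0.05, 54 isolated windows were higher and 7 lower, and 16 shoulder windows were higher and 59 lower, or 13.9% and 12.8% of each kind, again below the 18.8% of all windows. The counts rested on the spread of other libraries: without fkh1Δfkh2Δ2C replicate 1, 25 windows were called higher and 13 lower, where the genome had 1.33% and 1.34%, and without its replicate 2, 26 and 13, where the genome had 1.35% and 1.37%. The share of chosen windows called lower was thus near that of the genome. With fkh1Δfkh2Δ replicate 1 and fkh1Δfkh2Δ2C replicate 1 both left out, 128 and 73 were called, where the genome had 4.18% and 4.62%.

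The zones with the smallest p-values in fkh2Δ had small differences. The isolated zone inside SNF2, which encodes the motor of a chromatin remodeller (chromosome XV, 851001 to 858000), had 16.998 and 14.01 in WT and 21.2 and 23.2 in fkh2Δ. Inside UBP15, a gene of a ubiquitin protease (chromosome XIII, 876001 to 881000), 15.8 and 13.4 in WT compared with 22.4 and 22.7, a log2 difference of 0.73 from WT replicate 2 with limma adjusted p-values of 0.0837 to 0.209. Both fkh2Δ libraries lay above WT replicate 2 in these zones, without passing. YER079W on chromosome V was the other zone on the upper side, with a log2 difference of 0.75. On the lower side were the shoulders inside PRM6 and DSK2 on chromosome XIII and AMF1 on chromosome XV, with log2 differences of -0.50, -0.45 and -0.47.

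**Figure D2:**
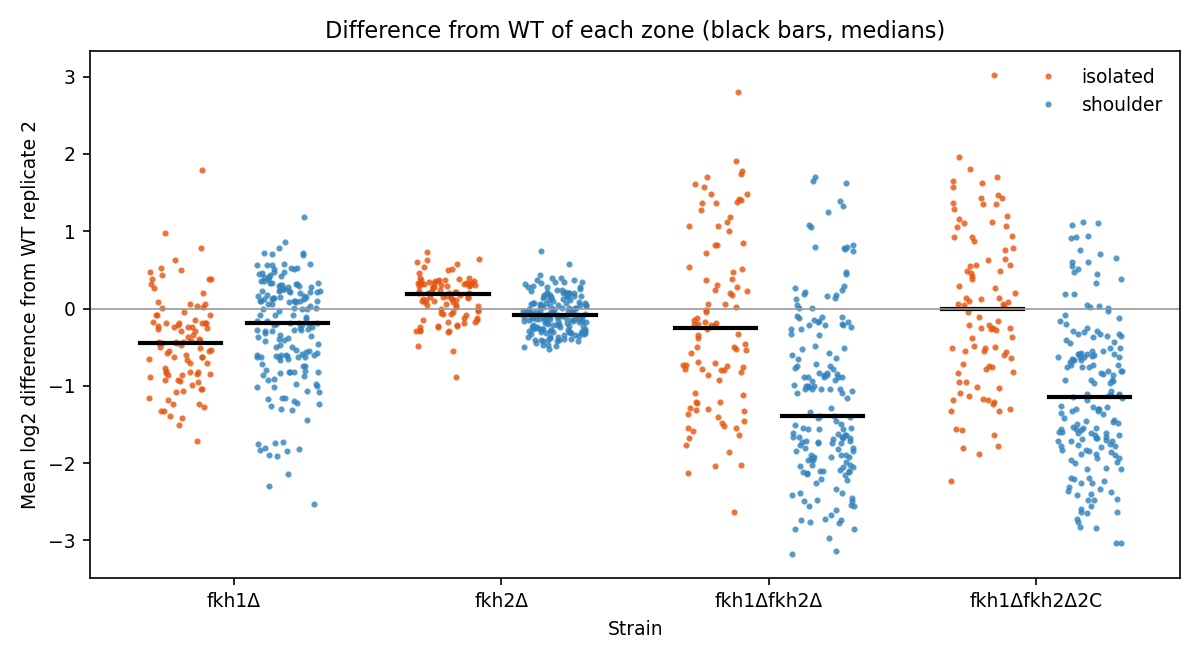
Mean log2 difference of each zone from WT replicate 2 (y axis) in each mutant (x axis), for 96 isolated zones and 171 shoulders, with black bars at the medians. The medians of fkh1Δfkh2Δ were -0.25 for isolated zones and -1.39 for shoulders, and single zones ran from -3.17 to 2.80.

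Most of the windows changed in the strain labelled fkh1Δfkh2Δ, of which replicate 1 kept FKH2 signal at 67.8% of its flanks and replicate 2 at 39.2%. In this strain, limma called 617 of 1044 windows lower and 152 higher than WT replicate 2 at an adjusted p under 0.05, and 275 neither. The genome had 21.3% lower and 24.4% higher in this comparison, against 59.1% and 14.6% of the chosen windows. Arm windows of 40 or more had 83.5% lower and 2.90% higher, and arm windows under 10 had 12.1% and 24.6%. The median log2 difference of the chosen windows was -0.84 and that of all windows 0.02. A fall of at least 1 on the log2 scale was found in 461 of the lower windows and a rise of that size in 105 of the higher ones. Over all 10856 windows tested, these counts were 1205 and 1246. They were 315 and 3 in the 449 arm windows of 40 or more, and 205 and 723 in the 7341 arm windows under 10 tested. Large falls but not large rises were thus more frequent here than over the genome. Large falls were less frequent here than in arm windows of 40 or more. The rule asks for a signal of at least 10 in WT, and lower windows have less room to fall. The part of this in the comparison with the genome was not tested. Shoulder windows had a median of -1.28, with 422 lower and 51 higher, and isolated windows one of -0.37, with 182 lower and 101 higher. By zones, 164 were lower, 38 higher and 68 neither. Among isolated zones 24 were higher and 38 lower, and among shoulders 14 were higher and 124 lower. Both libraries of the strain were under 10 in 35 isolated zones and 92 shoulders, and both were at 40 or more in 13 isolated zones and 9 shoulders. Without fkh1Δfkh2Δ replicate 1, 567 windows were lower and 131 higher, with a median of -0.87. Shoulder windows then had a median of -1.34, with 408 lower and 39 higher, and isolated windows one of -0.37, with 146 lower and 92 higher. By zones, 152 were lower and 33 higher without it, of which 30 and 22 were isolated and 120 and 11 shoulders. Replicate 2 alone was under 10 in 39 isolated zones and 102 shoulders, and at 40 or more in 14 and 12. Leaving out each mutant library in turn gave 548 to 676 lower and 131 to 183 higher. For these refits, too, the genome shares are not given here.

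The deepest falls in fkh1Δfkh2Δ were on both sides of the RGI2 locus. The shoulder reaching to RGI2 and VHR1, which encodes a regulator of biotin genes (chromosome IX, 249001 to 252000), had 22.1 and 29.6 in WT and 2.23 and 2.16 in fkh1Δfkh2Δ. The shoulder across the run, reaching to YIL059C and RGI2 (chromosome IX, 243001 to 247000), had 22.7 and 31.2 in WT and 2.45 and 2.34. Their log2 differences were -3.17 and -3.14, with limma adjusted p-values from 7.98e-07 to 1.17e-06, while in fkh1Δ alone the first had 16.3 and 14.5 and the second 14.5 and 13.5. The longest shoulder, 11 windows at MCM7, which encodes a subunit of the replicative helicase (chromosome II, 625001 to 636000), had 22.99 and 24.1 in WT, 10.5 and 10.03 in fkh1Δ, 23.7 and 22.7 in fkh2Δ, and 2.33 and 2.21 in fkh1Δfkh2Δ. Every one of its 11 windows passed as lower in fkh1Δ and in fkh1Δfkh2Δ, with a log2 difference of -2.86 in fkh1Δfkh2Δ. The levels thus stepped down from WT replicate 2 through fkh1Δ to fkh1Δfkh2Δ there without overlap. TOR2, AMF1 and LOS1 completed the 6 largest falls, with log2 differences of -2.85, -2.76 and -2.74.

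The largest rises of fkh1Δfkh2Δ made moderate zones into strongly labelled ones. The isolated zone between MIG3 and SMB1 went from 18.5 and 19.2 in WT to 74.9 and 70.8, a log2 difference of 1.91 with a median standard error of 0.17 and limma adjusted p-values of 9.46e-06 to 3.88e-05. Between SCM3, which encodes a chaperone of the centromeric histone, and RGT2, a glucose sensor gene (chromosome IV, 209001 to 215000), 16.4 and 20.9 in WT became 68.3 and 73.1. Inside CHS1, a chitin synthase gene (chromosome XIV, 278001 to 281000), 11.6 and 13.9 became 45.4 and 49.1. Each of these 3 isolated zones passed over its whole length, and fkh1Δ stood between WT replicate 2 and fkh1Δfkh2Δ at each. The 3 other zones were shoulders, inside NUP120 of the nuclear pore (chromosome XI, 333001 to 336000), at GLC7, the gene of protein phosphatase 1 (chromosome V, 433001 to 437000), and at BLI1 and FBA1 (chromosome XI, 322001 to 326000), with log2 differences of 1.71, 1.65 and 1.62. At NUP120 the 2 libraries had 70.2 and 80.9, against 20.8 and 22.7 in WT. The zone of 2 windows inside YNL115C reached 101 and 96.1, the highest zone mean of any isolated zone in these libraries.

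**Figure D3:**
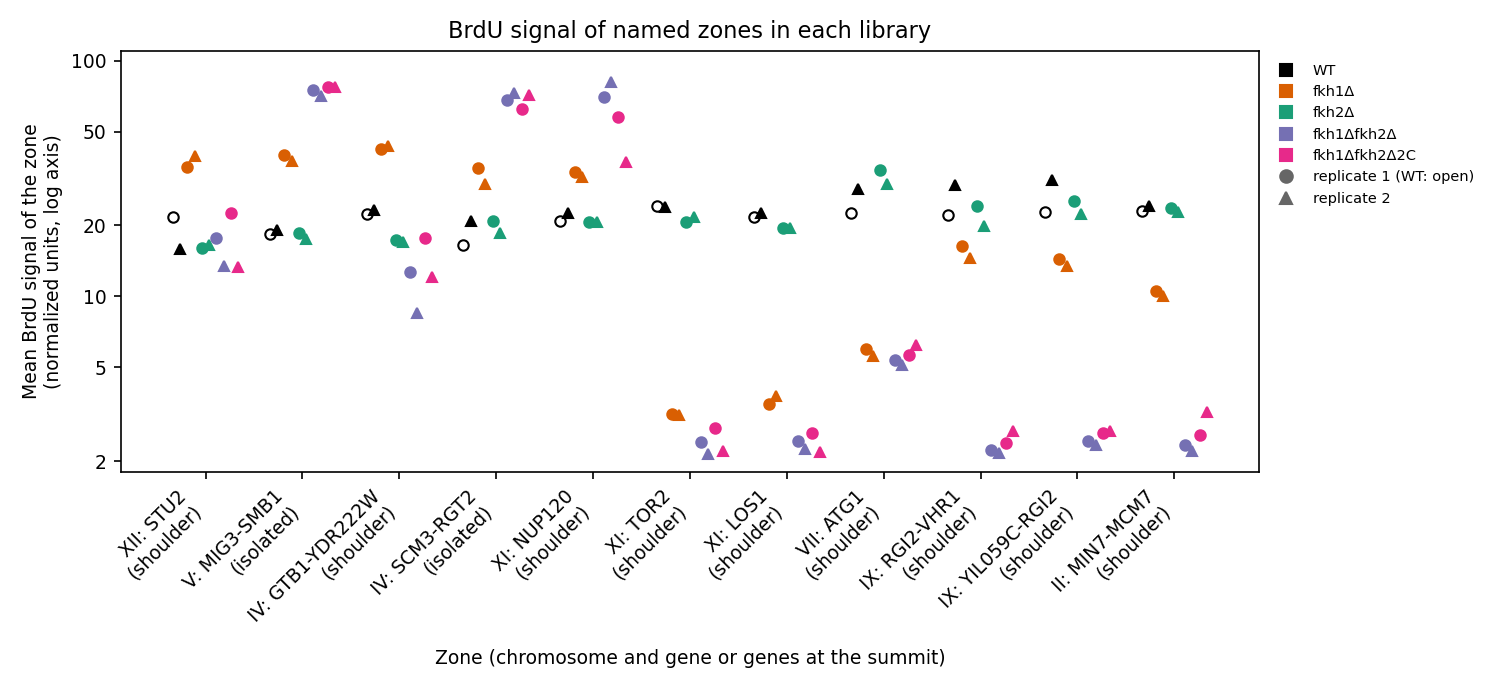
Mean BrdU signal (y axis, log scale, normalized units) in every library of the zones with the 3 largest rises and 3 largest falls in fkh1Δ or fkh1Δfkh2Δ, with circles for replicate 1 and triangles for replicate 2. At MIN7-MCM7 the fkh1Δ libraries had 10.5 and 10.03, between WT (22.99 and 24.1) and fkh1Δfkh2Δ (2.33 and 2.21).

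The strains labelled fkh1Δ and fkh1Δfkh2Δ were compared directly, the latter with the library whose FKH2 signal went against its label. Between fkh1Δfkh2Δ and fkh1Δ, limma called 278 windows higher and 509 lower in the former, or 26.6% and 48.8% of the chosen windows, against 28.1% and 23.9% of all windows. Arm windows of 40 or more had 8.46% higher and 77.5% lower, and arm windows under 10 had 29.8% and 16.9%. The 2 kinds of zone differed in sign here. Isolated windows had a median log2 difference of 0.38, with 202 higher and 112 lower, and shoulder windows one of -0.94, with 76 higher and 382 lower. Without fkh1Δ replicate 2, 181 windows were higher, and without fkh1Δfkh2Δ replicate 1, 218 were higher and 464 lower, with genome shares not given here. The signs of both kinds held without that library, where isolated windows had a median of 0.37, with 156 higher and 88 lower, and shoulder windows one of -0.98, with 62 higher and 362 lower. Some zones that had risen in fkh1Δ were lower in fkh1Δfkh2Δ. The shoulder at GTB1 had 42.0 and 43.4 in fkh1Δ and 12.7 and 8.51 in fkh1Δfkh2Δ, a log2 difference of -1.96 with all 4 windows lower, and the shoulder inside MRPS35 had 27.4 and 29.9 and then 9.35 and 8.15, a log2 difference of -1.61. Inside STU2, 35.4 and 39.5 in fkh1Δ compared with 17.6 and 13.5, and 3 of its 4 windows passed as lower. At other zones these strains were not called different. Inside ATG1 and TOS3 the log2 differences between these 2 strains were -0.06 and -0.13, with 0 windows past the threshold and smallest limma adjusted p-values of 0.117 and 0.265.

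The strain labelled fkh1Δfkh2Δ2C gave counts close to those of fkh1Δfkh2Δ against the same WT library. Both strains share signal through fkh1Δfkh2Δ replicate 1, so this closeness is not that of independent libraries. Limma called 582 windows lower and 153 higher than WT replicate 2, or 55.7% and 14.7%, where the genome had 19.1% and 21.4%. Arm windows of 40 or more had 70.4% lower and 4.01% higher, and arm windows under 10 had 10.4% and 21.8%. Isolated windows were lower in 151 and higher in 117 cases, with a median log2 difference of -0.17, and shoulder windows in 418 and 36 cases, with a median of -1.15. Among isolated zones 28 were higher and 29 lower, and among shoulders 10 were higher and 128 lower. Leaving out any single mutant library gave 541 to 657 lower and 128 to 203 higher windows. The zones that led were mostly those named above. MIG3 and SMB1 had 77.3 and 77.3, CHS1 41.3 and 63.1, and SCM3 and RGT2 62.1 and 71.5. A further 3 isolated zones were named by the same rule in this strain. Between GMC1 and GIN4, a gene of a bud neck kinase (chromosome IV, 1460001 to 1465000), 17.3 and 20.6 in WT compared with 64.3 and 62.9. Between RPL12B and RAD30, the gene of DNA polymerase eta (chromosome IV, 1301001 to 1305000), 13.3 and 18.9 compared with 48.7 and 60.3. Between CYC3 and CDC19, the main pyruvate kinase gene (chromosome I, 68001 to 75000), the only zone of that chromosome, 12.6 and 13.4 compared with 34.3 and 43.2. All 3 had risen as far in fkh1Δfkh2Δ, with 64.4 and 64.4, 50.4 and 52.3, and 40.3 and 44.8 in the same order. The 6 largest falls, with log2 differences from -3.03 to -2.65, were at VHR1, YIL059C, AMF1, TOR2, LOS1 and AIM14.

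Directly compared, fkh1Δfkh2Δ2C and fkh1Δfkh2Δ had no window past the threshold. Limma called 0 of 1044 higher and 0 lower, where the genome had 0% in both directions, and at an unadjusted p under 0.05 there were 145 higher and 78 lower, or 21.4% of the chosen windows, against 15.3% of all windows. The smallest adjusted p was 0.106. The 2 libraries of fkh1Δfkh2Δ2C differed from each other by a median of 0.23 on the log2 scale, against 0.14 for WT, 0.09 for fkh1Δ, 0.09 for fkh2Δ and 0.10 for fkh1Δfkh2Δ. The last value may be too small, since replicate 1 of fkh1Δfkh2Δ matched a sum that includes its replicate 2. The other part of that sum was fkh1Δfkh2Δ2C replicate 1, so the strains compared here may not be independent. Single libraries decided the counts. Without fkh1Δfkh2Δ2C replicate 1, 232 windows were higher and 128 lower, where the genome had 10.01% and 8.52%, without fkh1Δfkh2Δ replicate 1, 6 were higher and 4 lower, and without fkh1Δfkh2Δ2C replicate 2, 0 were higher and 2 lower. With replicate 1 of both strains left out, the choice made after seeing that they share signal, 305 were higher and 142 lower, where the genome had 10.7% and 8.69%.

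Summits of isolated zones lay near the WT place in most libraries, while height and width differed. Within 500 bp of the WT replicate 1 summit, the mean over 96 isolated zones was 21.2 in WT replicate 2, 16.1 and 15.1 in fkh1Δ, 24.2 and 23.4 in fkh2Δ, 23.4 and 23.6 in fkh1Δfkh2Δ, and 23.1 and 32.5 in fkh1Δfkh2Δ2C. The fkh1Δ libraries were the lowest and fkh1Δfkh2Δ2C replicate 2 stood well above its partner. Searched inside the zone's own bounds, the highest bin lay within 500 bp of the WT replicate 1 summit in 96.9% of isolated zones in WT replicate 2, in 88.5% to 96.9% in the single mutants and in 82.3% to 92.7% in the strains labelled with both deletions. At 2 to 3 kb from the summit, the signal was 49.6% of the summit value in WT replicate 2, 55.8% and 57.4% in fkh1Δ, 49.9% and 49.5% in fkh2Δ, 58.5% and 59.4% in fkh1Δfkh2Δ, and 58.0% and 40.3% in fkh1Δfkh2Δ2C. At 5 to 6 kb it was 22.3% in WT replicate 2, 28.01% and 29.7% in fkh1Δ, 19.3% and 19.98% in fkh2Δ, and 30.02% and 32.7% in fkh1Δfkh2Δ. Up to 6 kb the profiles of fkh1Δ and fkh1Δfkh2Δ were thus flatter than those of WT replicate 2 and fkh2Δ, with fkh1Δfkh2Δ2C split between its libraries. Farther out the strains parted. At 9 to 10 kb the signal was 32.0% of the summit value in WT replicate 2, 36.0% and 38.1% in fkh1Δ, 28.2% and 28.9% in fkh2Δ, and 23.4% and 23.2% in fkh1Δfkh2Δ. In WT replicate 2 the signal itself was 6.76 there, higher than at 5 to 6 kb. In fkh1Δfkh2Δ it was 5.46 and 5.47, lower than at 5 to 6 kb. The zone mean of fkh1Δfkh2Δ ran from 1.96 to 101 in replicate 1, against 6.60 to 31.5 in WT replicate 2, so the average profile joined zones that fell and zones that rose.

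**Figure D4:**
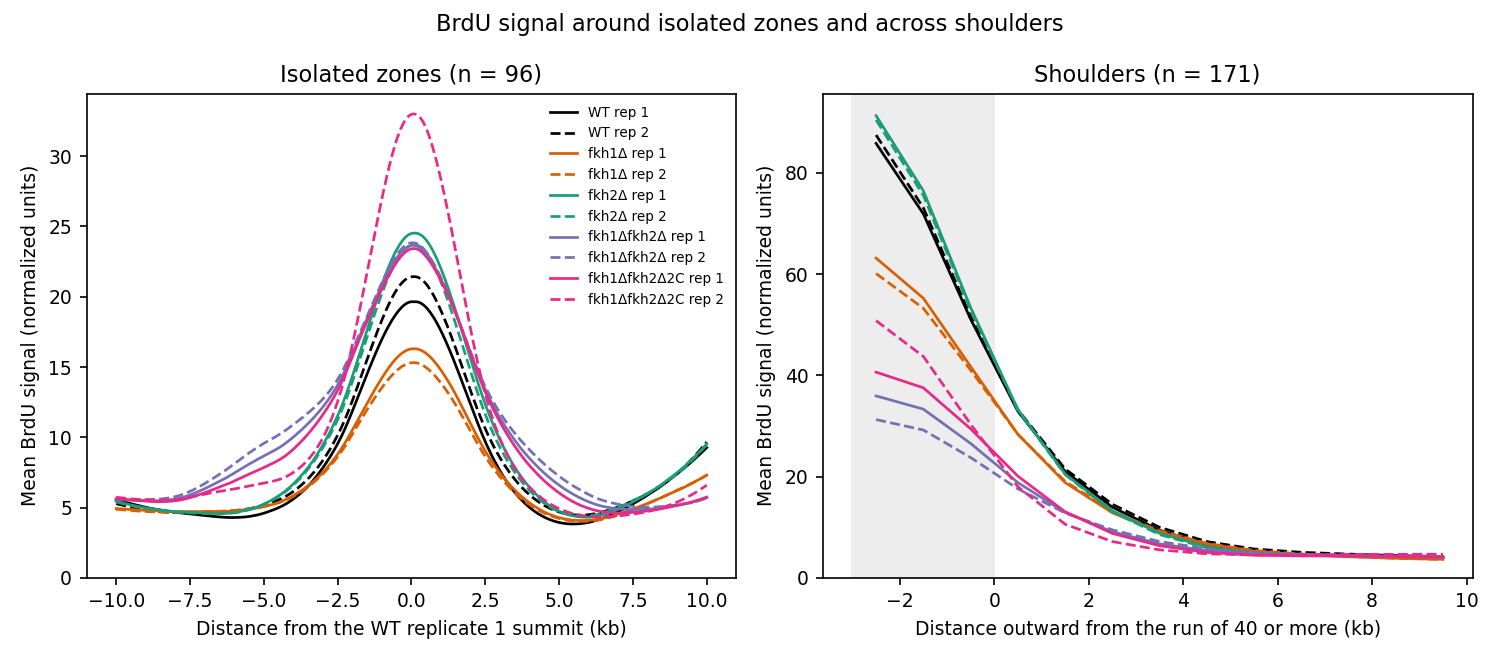
Mean BrdU signal (y axes, normalized units) in every library around the summits of 96 isolated zones (left, distance in kb) and outward from the strongly labelled run across 171 shoulders (right, 1 kb windows, with the last 3 kb of the run shaded). In the first window outward, WT replicate 2 had 33.2 and the fkh1Δfkh2Δ libraries 18.8 and 17.6.

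The longest isolated zones differed among themselves. Between NNF2 and UTP22 (chromosome VII, 652001 to 664000, 12 windows), 21.2 and 25.6 in WT compared with 11.8 and 10.8 in fkh1Δ, 27.0 and 23.9 in fkh2Δ, and 8.51 and 8.25 in fkh1Δfkh2Δ, with 8 windows lower in each of fkh1Δ and fkh1Δfkh2Δ. Between PAM16 and GSM1 (chromosome X, 222001 to 233000, 11 windows), fkh1Δ fell to 16.5 and 16.8 from 24.3 and 29.98 in WT, with 9 windows lower, whereas fkh1Δfkh2Δ had 25.7 and 25.6 and 0 windows called. In the direct comparison 10 of its 11 windows were higher in fkh1Δfkh2Δ than in fkh1Δ. Between UFO1 and AIM33 (chromosome XIII, 90001 to 100000, 10 windows), 24.5 and 23.2 in WT compared with 12.7 and 12.8 in fkh1Δ and 14.7 and 15.97 in fkh1Δfkh2Δ. Of the long shoulders other than that at MCM7, the zone ending inside NAB6 (chromosome XIII, 35001 to 44000) fell from 26.9 and 22.2 to 12.2 and 12.99 in fkh1Δ and 4.05 and 3.88 in fkh1Δfkh2Δ, all 9 windows passing. The shoulder ending inside HEM12 of heme synthesis (chromosome IV, 543001 to 552000) had 17.9 and 16.3 in WT and 13.2 and 13.8 in fkh1Δfkh2Δ, with 2 windows higher and 3 lower.

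Shoulders followed the strong runs they touch. The 171 shoulders flanked 91 runs. The median shoulder had 31.7% of the mean of its run in WT replicate 2, 36.5% and 38.01% in fkh1Δ, 28.3% and 28.7% in fkh2Δ, 37.97% and 43.1% in fkh1Δfkh2Δ, and 35.4% and 25.8% in fkh1Δfkh2Δ2C. Across shoulders, the log2 difference from WT replicate 2 of the shoulder and of its run had a Pearson r of 0.96 in fkh1Δ, 0.76 in fkh2Δ, 0.95 in fkh1Δfkh2Δ and 0.95 in fkh1Δfkh2Δ2C. These are descriptions over 171 points that share libraries, and the shoulders of 1 run share that run. In fkh1Δ the median was -0.19 for shoulders and -0.50 for their runs, in fkh1Δfkh2Δ these were -1.39 and -1.61, and in fkh1Δfkh2Δ2C -1.17 and -1.02. Taken shoulder by shoulder, the log2 difference of the shoulder minus that of its own run had a median of 0.29 in fkh1Δ, 0.36 in fkh1Δfkh2Δ, -0.11 in fkh2Δ and -0.01 in fkh1Δfkh2Δ2C. The shoulder thus fell less than its run in fkh1Δ and fkh1Δfkh2Δ. For fkh1Δfkh2Δ2C the median joins 2 libraries that disagreed, with 35.4% and 25.8% of the run, above and below the 31.7% of WT replicate 2. Whether the smaller fall of the shoulder holds in that strain is therefore not settled. Shoulders also started lower, with a median of 22.4 against 70.6 for runs in WT replicate 2. They had less room to fall before the median bin of the genome, 2.60 to 2.66. The part of this limit in the smaller fall was not tested. With fkh1Δfkh2Δ replicate 2 alone, r was 0.94, the medians were -1.45 and -1.70, and the median of the paired differences was 0.43. In fkh1Δfkh2Δ 144 shoulders and their runs were both lower, 15 both higher and 12 opposite.

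**Figure D5:**
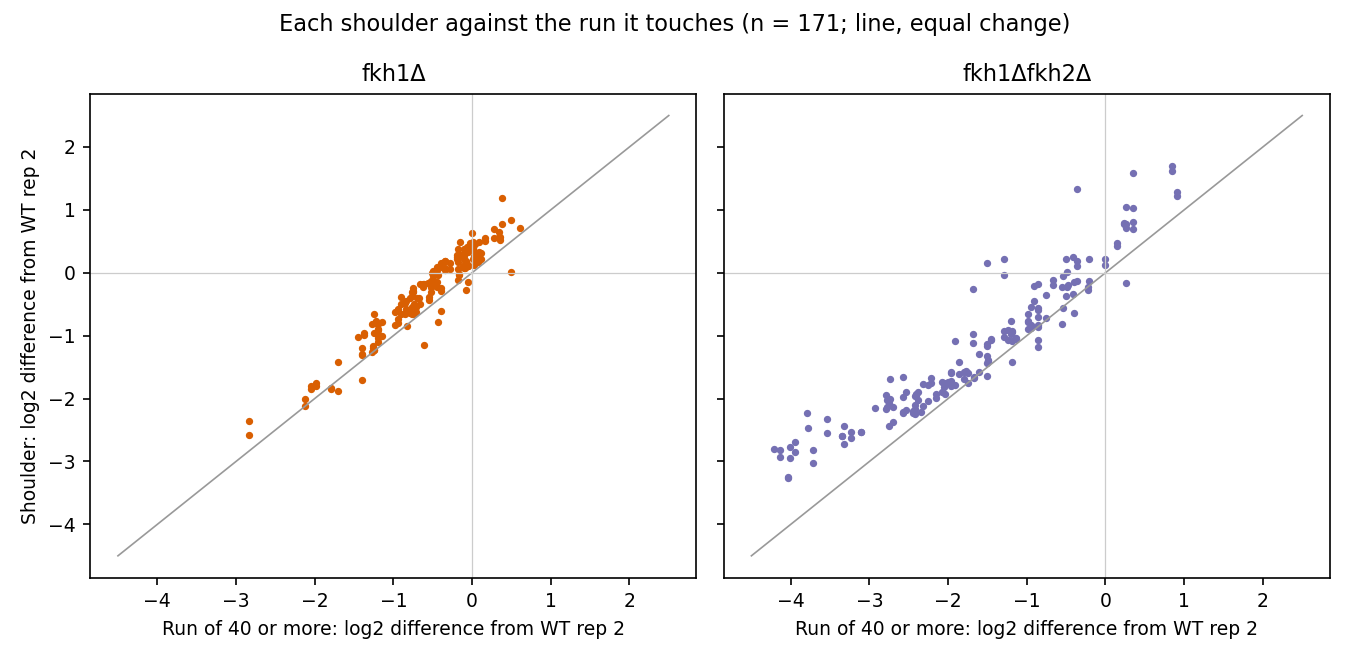
Log2 difference from WT replicate 2 of each of 171 shoulders (y axis) against that of the strong run it touches (x axis), in fkh1Δ and fkh1Δfkh2Δ, with a line of equal change. Most points lie above the line, and the medians were -0.19 and -0.50 in fkh1Δ and -1.39 and -1.61 in fkh1Δfkh2Δ for shoulders and runs.

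Position on the chromosome and starting level went with some of the differences. In fkh1Δ the median log2 difference was 0.03 for the 127 windows at 35 to 75 kb from a centromere, -0.10 at 75 to 150 kb, -0.54 at 150 to 300 kb and -0.31 beyond 300 kb, with 21.3%, 27.6%, 43.4% and 33.4% of windows lower. In fkh1Δfkh2Δ the same bands had medians of -1.28, -0.65, -0.92 and -0.77, and without its replicate 1 of -1.33, -0.65, -1.001 and -0.80. No ordering with distance from the centromere held across both strains. By WT replicate 1 level, 20.1% of windows from 10 to under 15 were higher in fkh1Δfkh2Δ and 51.4% lower, and of those from 30 to under 40, 5.03% were higher and 71.1% lower. Without fkh1Δfkh2Δ replicate 1 these shares were 18.2% and 46.7%, and 3.77% and 65.4%. These bands were cut on WT replicate 1, which chose the windows, so they are a description. Shoulder windows had a higher mean than isolated ones in that library, 22.2 against 17.4. They were also more often lower in fkh1Δfkh2Δ, 71.9% against 41.6%. The bands were not split by kind, so level and kind cannot be told apart here. Every chromosome that the rule admits had lower windows in fkh1Δfkh2Δ except chromosome I, whose single zone of 7 windows was higher throughout. Chromosome X had 0 higher and 42 lower of its 75 windows, and chromosome XI 24 higher and 21 lower of its 70. Without fkh1Δfkh2Δ replicate 1 chromosome X had 0 and 39, chromosome XI 22 and 19, and chromosome I was still higher throughout. Neighbouring zones no more than 30 kb apart formed 157 pairs. In fkh1Δfkh2Δ 85 pairs were both lower, 6 both higher and 11 opposite, and without its replicate 1 these were 79, 5 and 6. The 2 shoulders of 1 run are among these pairs.

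Summits of isolated zones lay between genes more often than window centres did. Of 96 summits, 58 were intergenic, or 60.4%, against 25.2% of the centres of 9523 arm windows and 81.3% (74 of 91) of the summits of arm runs of 40 or more. Space between convergent genes held 22 summits, or 22.9%, against 4.13% of window centres and 23.1% of the summits of strong runs. A summit was picked as the highest bin and a window centre was not, so these are descriptions of where the peaks were. Falls in fkh1Δ were counted in 12 of the 22 convergent zones, 13 of 38 zones with a summit inside a gene, 9 of 24 between tandem genes and 2 of 12 between divergent genes, with medians of -0.62, -0.41, -0.27 and -0.49. In fkh1Δfkh2Δ 5, 10, 5 and 4 of these were higher and 11, 15, 8 and 4 lower, and without its replicate 1 these were 5, 9, 5 and 3 higher and 8, 13, 7 and 2 lower.

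RNA polymerase II was lower at the summits than beside them. The median Rpb3 signal within 200 bp of the 96 summits was 70.2% to 87.9% of that at 1 to 3 kb in the 8 libraries, and it was lower at the summit in 61 to 78 of the zones. The part that their place between genes has in this was not tested. In arrested cells it was 29.6 and 32.0 at the summits in WT and 30.2 and 35.8 in fkh1Δfkh2Δ2C. Over the 975 chosen windows tested, limma called 0 different between fkh1Δfkh2Δ2C and WT in arrested cells and 0 in asynchronous cells, as in the genome (0%), with 47 and 203 at an unadjusted p under 0.05, or 4.82% and 20.8% of them, near the 3.81% and 22.7% of all windows. Of 1787 stranded windows of RNA in arrested cells, 0 passed, where the genome had 0%, and 113 had an unadjusted p under 0.05, or 6.32%, against 5.42% of the genome. The asynchronous WT libraries differed from each other at several zones, for example 172 and 77.0 at TPS1, and without WT replicate 2 the asynchronous count was 376, where the genome had 40.4%, and without replicate 1 it was 1. For arrested cells, it was 2 and 1 without WT replicate 1 or 2, and for RNA it was 195 and 147 without fkh1Δfkh2Δ2C replicate 1 or 2, where the genome had 10.4% and 8.26%. Rpb3 was computed for all named zones and is printed here for 3 with large BrdU differences. At MIG3 and SMB1 in arrested cells, Rpb3 was 35.3 and 32.7 in WT and 37.9 and 35.1 in fkh1Δfkh2Δ2C, and at MCM7 it was 39.7 and 37.2 in WT and 38.2 and 36.7. The arrested groups overlapped in both. Inside TOR2 it was 29.5 and 29.5 in WT and 29.3 and 28.5, both below WT by little. The smallest limma adjusted p of a window in these 3 zones in arrested cells was 0.9997. In asynchronous cells both fkh1Δfkh2Δ2C libraries were below both WT libraries at these 3 zones, with the smallest difference at MIG3 and SMB1. MCM7 had 37.3 and 36.1 in WT and 32.1 and 32.8 in fkh1Δfkh2Δ2C, and TOR2 had 31.7 and 32.9 and then 27.8 and 28.04. Other named zones went the other way. Between PAM16 and GSM1, asynchronous Rpb3 was 55.1 and 63.6 in WT and 79.3 and 83.6 in fkh1Δfkh2Δ2C. For 2 against 2 libraries, a 2-sided exact permutation test can give no p under 0.333, so such separation decides nothing by itself. MIG3 and SMB1 had 40.7 and 40.75 in WT and 40.5 and 40.5 in fkh1Δfkh2Δ2C. The smallest limma adjusted p of a window in asynchronous cells was 0.195 at MCM7, 0.2003 at TOR2 and 0.405 at MIG3 and SMB1. A p that misses the threshold does not show that transcription was equal.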

How the data were processed

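BrdU, Rpb3 and RNA libraries were sequenced, and the authors deposited 1 table per assay of normalized signal in bins of 50 bp; per the file headers the values are normalized. Aligner, build and method of normalization were not given in the sources used here, and depth is unknown, so no counting intervals are given. Bins were averaged over windows of 1000 bp, tiled from the first bin of each chromosome. Distances to centromeres and chromosome ends used assembly R64, whose centromere positions were entered by hand and lay between left and right arm genes on 16 of 16 chromosomes. For gene names, 6002 genes of the RefSeq R64 table were placed by local shifts fitted to the stranded RNA, within 1 bin for 94.6%, and most signal was sense for 92.2%, against 82.3% and 80.3% with genes moved by 10 bins. R64 gene coordinates are not printed.

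Log2(signal + 1) was tested with limma 3.58.1 in R 4.3.3, variance trend on, 2-sided, in 1 fit of 5 groups over 9 libraries with 4 residual degrees of freedom. WT replicate 2 was the lone control and was assumed to vary like the mutant groups. The fit took fkh1Δfkh2Δ replicate 1 as independent, which its match to a sum of other libraries puts in doubt. Fold changes understate the change of low windows. The 10% of windows with the lowest mean were left out, leaving 10856, with all 1044 chosen windows among them. P-values were Benjamini-Hochberg adjusted over these, with a threshold of 0.05. Rpb3 (8 libraries) and G1 RNA (4 libraries, each strand of a window a feature) were fitted with pseudocounts of 3.72 and 0.0262. Asynchronous RNA was not analysed here, since 2 of its columns share a name. The fit was tested on simulated data in which 200 chosen windows were changed by 1 on the log2 scale in fkh1Δ. It recovered 63.5% of them, and 7.3% of all its calls were false. A window without a call may therefore still have changed. Named zones have 3 or more windows, at least 50% of them called, and the 6 largest mean differences in each direction. For fkh2Δ, where none qualified, the 3 smallest median p-values in each direction were used, and the 3 longest isolated zones and shoulders were added. For fkh1Δfkh2Δ, results by zone, kind, position and summit without replicate 1 were added after seeing the data. The members, kinds and rules were chosen with earlier results of these data known. No label ties same-numbered libraries to a shared source.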

Additional observations from a re-analysis of the deposited data

How the results depend on the processing

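No named zone changed sign under the alternatives that keep the windows (the shifted grid and zones as the unit give named zones no value). These zones were picked from the same libraries for large differences or small p-values, so kept signs are a description and no support. Some alternatives also used WT replicate 1, which chose the windows. Of the values of named zones, 672 kept their side of the threshold, 28 lost it and 14 gained it. Of the counts, 209 stayed within 1.5 times of the reported value and 46 did not, as follows; the cause was not tested where not stated. With the replicate block, which pairs libraries by a number that no label ties to a shared source, 25 windows were higher in fkh1Δ (46 without it), 9 RNA windows passed, and Rpb3 stayed at 0. Deviations of same-numbered libraries had correlations from -0.23 to 0.26 in BrdU, 0.33 and 0.48 in asynchronous and arrested Rpb3, and 0.020 in RNA. With both WT libraries as control 83 were higher in fkh1Δ. With WT replicate 1, which chose the windows, as the control, 4 were higher and 9 lower in fkh2Δ, and a pseudocount of 5 gave 3 lower. Taking zones as the unit, of which there are fewer, 18 were higher and 112 lower in fkh1Δ, 1 lower in fkh2Δ, 42 and 167 in fkh1Δfkh2Δ, 45 and 163 in fkh1Δfkh2Δ2C, and 67 and 146 between fkh1Δfkh2Δ and fkh1Δ. Over all runs in that fit the shares were 19.9% and 27.3%, 0.683% lower, 31.8% and 46.6%, 29.4% and 42.8%, and 35.2% and 42.1%. With replicate 1 of fkh1Δfkh2Δ and of fkh1Δfkh2Δ2C left out, chosen after seeing the data, 189 were higher and 525 lower in fkh1Δ, 128 higher and 73 lower in fkh2Δ, where the genome had 16.6% and 15.2%, and 4.18% and 4.62%, and 305 and 142 between fkh1Δfkh2Δ2C and fkh1Δfkh2Δ. Centring libraries gave 3 RNA windows, and a pseudocount of 100% of the median 1 asynchronous Rpb3 window.

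Leaving out 1 library at a time, higher and lower windows ranged from 8 to 133 and 187 to 495 in fkh1Δ, 0 to 26 and 0 to 13 in fkh2Δ, 131 to 183 and 548 to 676 in fkh1Δfkh2Δ, 128 to 203 and 541 to 657 in fkh1Δfkh2Δ2C, 181 to 329 and 430 to 554 between fkh1Δfkh2Δ and fkh1Δ, and 0 to 232 and 0 to 128 between fkh1Δfkh2Δ2C and fkh1Δfkh2Δ. Called windows ranged from 0 to 376 for asynchronous Rpb3, 0 to 2 for arrested Rpb3 and 0 to 195 for RNA. Where no genome share is printed beside a count of a refit, the count shows only how far it moved. It does not show whether the chosen windows moved more than the genome. WT rests on 1 library that the rule did not use, and no alternative replaces it without using the values that chose the windows. Depth is unknown, so precision rests on 2 libraries per strain.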
